A study of Mus musculus with 6 samples.

Results

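The 10 genes of MHC class I antigen presentation were examined in the mouse hippocampus after chronic cerebral hypoperfusion. They were taken by symbol from the 54752 Ensembl identifiers counted in each library, where each of the 10 symbols had 1 identifier. The genes encode the class I heavy chains H2-K1, H2-D1, H2-Q4, H2-Q6, H2-Q7 and H2-T23, the light chain B2m, the peptide transporter subunits Tap1 and Tap2, and the loading factor tapasin (Tapbp). The samples were right hippocampi of male wild-type C57BL/6 mice, labelled as 14 weeks of age and collected 3 weeks after surgery. In bilateral carotid artery stenosis (BCAS) a microcoil was wound around each common carotid artery, the narrower one on the right. Sham mice had the operation without coils. There were 3 BCAS and 3 sham mice with 1 RNA-seq library each, so mice of 1 sex and strain, 1 side and 1 time point are described.

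Class I molecules display peptides from inside the cell at its surface, where CD8 T cells and NK cells read them. The proteasome cuts the peptides, the TAP transporter carries them into the endoplasmic reticulum, and tapasin holds an empty heavy chain with its light chain beside TAP until a peptide fits. In the resting brain these genes are known for low levels, and interferons and NF-kappa B are known to raise their transcription in microglia and other cells.

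All 10 genes were higher in BCAS than in sham hippocampus. A call required an adjusted P under 0.05 by edgeR's quasi-likelihood test and an absolute log2 fold change above 1, and all 10 genes met it, beside 8.47% of the 18617 genes tested (9.46% called in either direction). Their log2 fold changes ran from 1.24 for Tap2 to 3.92 for H2-Q6 with a median of 3.02, beside a median of 0.02 over all genes tested. Every BCAS mouse lay above every sham mouse for all 10 genes, a pattern found in 25.3% of the genes tested. The 10 genes together received 6724, 7014 and 7715 counts in sham mice 1 to 3, and each of them met the filter on low counts in every sham library. In BCAS mice 1 to 3 they received 46494, 45703 and 74984 counts. This was 0.0195% to 0.0217% of a sham library and 0.146% to 0.253% of a BCAS library. Levels are given as CPM, the count scaled to a common library size with TMM normalization. In whole tissue, more cells of a type and more RNA per cell cannot be told apart.

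**Figure D1:**
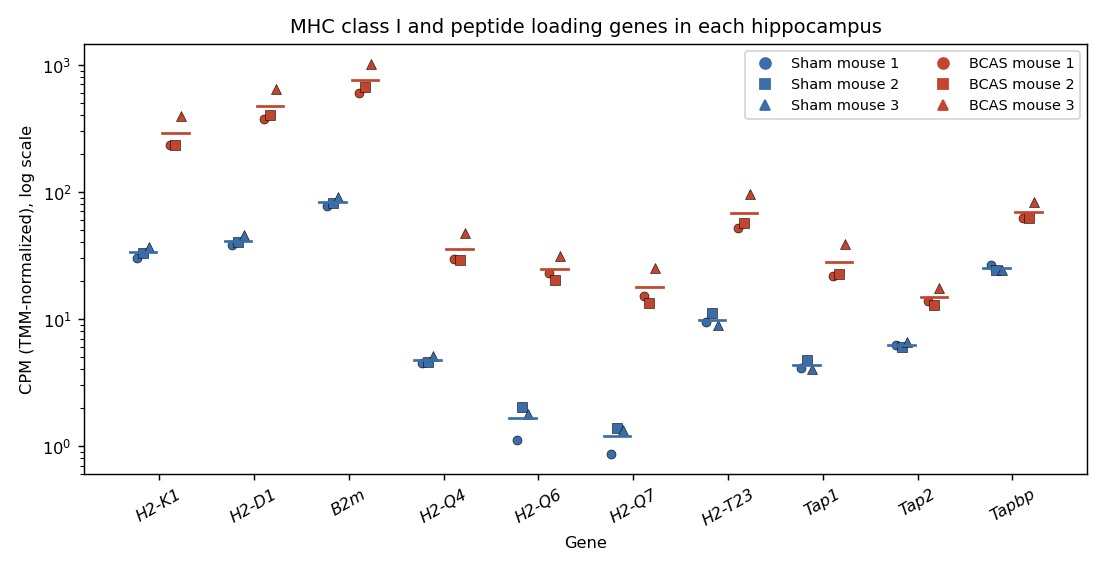
CPM on a log scale for the 10 genes in each library, with sham mice in blue and BCAS mice in red; points are single mice, their shape gives the mouse number, and bars are group means. The groups do not overlap for any gene, and BCAS mouse 3 is the highest point of all 10.

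Each sham library held 34301711 to 35607098 counts and each BCAS library 29652456 to 31892083. A count of 3, taken as the limit of detection, equalled 0.0874 to 0.0994 CPM, which covers counting error only. The hippocampal marker list summed to 928 to 994 CPM in sham and 543 to 765 CPM in BCAS, with 2 of its 6 genes called lower, beside 0.999% of all genes tested. Choroid plexus markers varied from 40.1 to 5938 CPM between libraries, with both extremes in BCAS mice, and sham mice spanned 70.0 to 4094 CPM. With the mean level of these markers as a covariate, chosen after seeing the data, all 10 genes were still called. BCAS mouse 3 had the highest level of all 10 genes, as it had for 1311 of the 1576 genes called higher (83.2%). All 10 calls held without this mouse.

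Promoter sequences of 4 heavy chain genes and B2m are shown because the members were higher together and because of the motif letters they hold. All of these promoters hold the letters of a known NF-kappa B element. Among them B2m alone holds the GAAA half-site pair that was searched for as an interferon element. Other forms of such an element in the heavy chain promoters are not excluded by this search. RefSeq windows on GRCm38.p6, from 250 bases before to 50 after the RefSeq start, were matched for 9 of the 10 genes, and Tap2 had none. RefSeq starts were not always those of the GENCODE genes used for the counts. They lay inside the counted gene by 364 bases for H2-D1, 154 for H2-T23 and 3579 for Tapbp, and were within 14 bases of its start for the others. The H2-D1 and Tapbp windows lay wholly inside the counted gene. The windows of H2-D1, H2-T23 and Tapbp overlapped annotated UTR by 270, 186 and 196 of their 300 bases and are described without being printed. Stretches of the H2-K1 (chr17:34000325-34000473, minus strand), H2-Q4 (chr17:35379428-35379576, plus), H2-Q6 (chr17:35424662-35424809, plus), H2-Q7 (chr17:35439007-35439153, plus) and B2m (chr2:122147533-122147648, plus) promoters are given 5′ to 3′ along the gene. Capitals mark matches to the motifs described after them.
H2-K1: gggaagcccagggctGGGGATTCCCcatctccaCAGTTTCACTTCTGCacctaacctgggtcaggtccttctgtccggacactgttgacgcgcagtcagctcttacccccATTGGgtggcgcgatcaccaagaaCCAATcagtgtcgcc
H2-Q4: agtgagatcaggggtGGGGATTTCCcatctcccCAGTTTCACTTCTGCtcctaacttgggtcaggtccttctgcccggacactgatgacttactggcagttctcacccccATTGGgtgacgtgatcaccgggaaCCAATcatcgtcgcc
H2-Q6: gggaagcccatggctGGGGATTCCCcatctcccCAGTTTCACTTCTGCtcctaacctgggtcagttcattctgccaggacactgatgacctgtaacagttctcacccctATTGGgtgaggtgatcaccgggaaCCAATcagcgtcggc
H2-Q7: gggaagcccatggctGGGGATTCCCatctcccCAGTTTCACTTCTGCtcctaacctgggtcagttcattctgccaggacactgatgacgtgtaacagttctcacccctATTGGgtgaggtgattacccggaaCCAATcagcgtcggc
B2m: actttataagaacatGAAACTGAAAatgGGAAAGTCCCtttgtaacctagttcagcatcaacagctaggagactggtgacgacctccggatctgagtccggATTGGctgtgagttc

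Motifs were searched on both strands, and a match is a description of letters, not a bound site. The kappa B form that makes up the first capitals of H2-K1, H2-Q6 and H2-Q7 stood in these genes, in H2-D1 and in 35 of all 32851 promoter windows (0.107%). H2-Q4, in its first capitals, and B2m, in its middle capitals on the reverse strand, held another kappa B form, found in 1.63% of all windows. From the kappa B match onward, the longest run of letters shared by H2-K1, H2-D1, H2-Q4, H2-Q6 and H2-Q7 was CAGTTTCACTTCTGC, a search chosen after seeing the promoters. It stood in 7 windows overall (0.0213%), of which 6 belonged to these 5 genes, because H2-K1 has 2 annotated starts, and the last to H2-Q10. A pair of GAAA half-sites separated by 2 bases, as in the interferon-stimulated response element (ISRE), was found in H2-T23, in the first capitals of B2m and in 3.44% of all windows. The shared run holds TTTC, which is GAAA on the reverse strand, but not the second half-site, so the search for the pair passed it over. Whether the run acts as an interferon element was not tested. The B2m match also met the stricter interferon regulatory factor element (0.791% of all windows), a special case of the same letters. CCAAT, the core of the Y box, occurred in all 9 genes and in 37.4% of all windows. The H2-Q6 and H2-Q7 stretches were 97.3% identical and those of H2-K1 and H2-D1 88.6%, while B2m or H2-T23 against the others gave 38.5% to 48.3%.

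**Figure D2:**
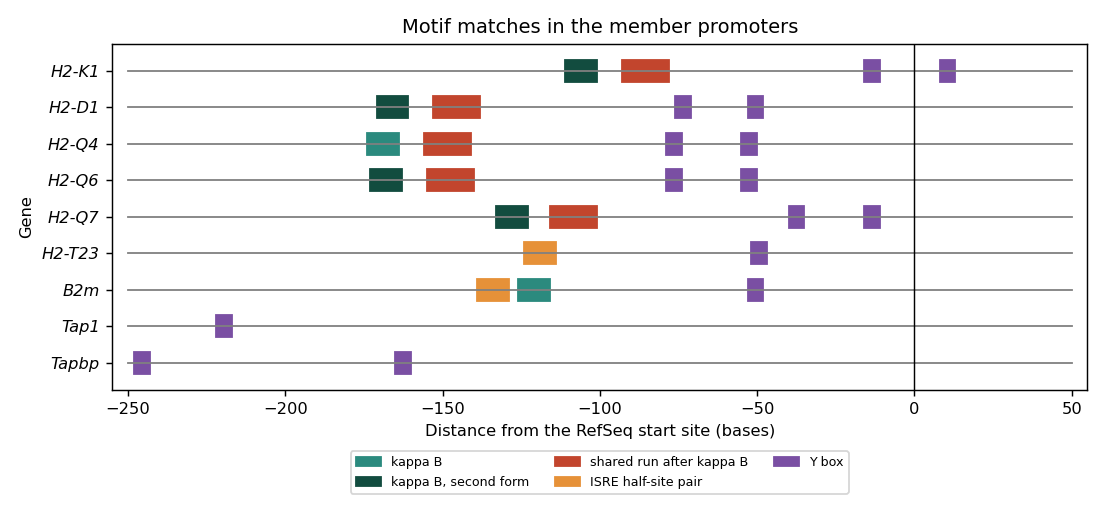
Positions of motif matches in the promoter windows of 9 genes; the x axis is the distance in bases from the RefSeq start (0, vertical line) and each coloured block is a match on either strand. In H2-K1, H2-D1, H2-Q4, H2-Q6 and H2-Q7 a kappa B block, the shared run and 2 Y boxes follow each other, while B2m and H2-T23 carry the ISRE half-site pair, and Tap1 and Tapbp hold Y box letters alone.

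H2-K1 and H2-D1 encode the classical class I molecules of the C57BL/6 mouse, which show peptides to CD8 T cells. H2-K1 (ENSMUSG00000061232.15, chr17:33996017-34000333, minus strand, mm10) was at 30.1, 33.1 and 36.8 CPM in sham mice 1 to 3. Its levels in BCAS mice 1 to 3 were 235, 233 and 398 CPM. The lowest BCAS mouse was 6.33 times the highest sham mouse. The mean rose from 33.3 ± 3.33 to 289 ± 94.7 CPM (SD, n = 3), a log2 fold change of 3.11 with a standard error of 0.21 and an edgeR adjusted P of 2.62e-05.

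H2-D1 (ENSMUSG00000073411.11, chr17:35262730-35267499, plus strand) was at 37.9, 40.4 and 45.3 CPM in sham mice. BCAS mice had 377, 400.2 and 641 CPM. Per kilobase of exon, H2-D1 was above H2-K1 in each of the 6 mice. Its mean went from 41.2 ± 3.75 to 473 ± 146 CPM (SD, n = 3), a log2 fold change of 3.52 with a standard error of 0.21 and an edgeR adjusted P of 1.71e-05.

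The remaining heavy chains are nonclassical. H2-Q6 and H2-Q7, which encode Qa-2 molecules, had the fewest counts of the 10 genes in sham mice. H2-Q6 (ENSMUSG00000073409.12, chr17:35424850-35430055, plus strand) was at 1.12, 2.03 and 1.78 CPM in sham mice and at 23.1, 20.2 and 31.3 CPM in BCAS mice. The log2 fold change of H2-Q6 was 3.92 with a standard error of 0.25 and an edgeR adjusted P of 2.03e-05. H2-Q7 (ENSMUSG00000060550.16, chr17:35439155-35443773, plus strand) was at 0.855, 1.38 and 1.34 CPM in sham mice and at 15.2, 13.2 and 25.3 CPM in BCAS mice. For H2-Q7 the log2 fold change was 3.91 with a standard error of 0.30 and an edgeR adjusted P of 4.34e-05. The order of the pair is not settled, since H2-Q7 was above H2-Q6 without sham mouse 1 (3.72 against 3.70), BCAS mouse 1 (4.01 against 3.96), BCAS mouse 2 (4.08 against 4.04) or, by a like margin, sham mouse 3. Sham mouse 1 was the lowest for both genes, with 38 counts of H2-Q6 and 29 of H2-Q7.

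H2-Q6 and H2-Q7 are close paralogs, and reads that aligned to more than 1 place were not counted. Of all 150-base windows of H2-Q6 transcripts, 5.99% also occurred in another gene, each time H2-Q7. For H2-Q7 the share was 5.90%, with H2-Q10, H2-Q6 and H2-Q5. The split of reads between the 2 genes is therefore less certain than their sum. Summed per library, the pair gave 1.98, 3.41 and 3.12 CPM in sham mice and 38.3, 33.5 and 56.6 CPM in BCAS mice. The sum rose by a log2 fold change of 3.92 with a standard error of 0.26 and an edgeR adjusted P of 2.28e-05, a change that was 3.66 to 4.07 under the alternatives run for it.

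H2-Q4 (ENSMUSG00000035929.11, chr17:35379617-35385290, plus strand) was at 4.45, 4.58 and 5.07 CPM in sham mice and at 29.8, 29.1 and 47.8 CPM in BCAS mice. Its log2 fold change was 2.92 with a standard error of 0.21 and an edgeR adjusted P of 2.91e-05. The antisense gene Gm11131 covers 19.1% of its exon length and had 2 to 24 counts per library. H2-T23 (ENSMUSG00000067212.8, chr17:36029773-36032855, minus strand) encodes Qa-1, which shows leader peptides of other class I chains to the CD94 receptors of NK cells. This gene was at 9.44, 11.0 and 8.94 CPM in sham mice and at 52.1, 56.9 and 96.1 CPM in BCAS mice. Its log2 fold change was 2.80 with a standard error of 0.23 and an edgeR adjusted P of 5.79e-05.

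B2m (ENSMUSG00000060802.8, chr2:122147686-122153083, plus strand) is the only one of the 10 genes outside chromosome 17, and its product is the light chain that every class I heavy chain above needs to fold. B2m was at 77.4, 82.1 and 90.7 CPM in sham mice. In BCAS mice it was at 599, 664 and 1022 CPM, and per kilobase it was the highest of the 10 genes in both groups. The mean rose from 83.4 ± 6.73 to 762 ± 228 CPM (SD, n = 3), a log2 fold change of 3.19 with a standard error of 0.20 and an edgeR adjusted P of 2.03e-05.

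The peptide transporter and tapasin rose as well, Tap1 more than Tap2 and Tapbp. Tap1 (ENSMUSG00000037321.17, chr17:34187553-34197225, plus strand), a subunit of the TAP pump, was at 4.13, 4.75 and 4.02 CPM in sham mice. Its levels in BCAS mice were 21.9, 22.6 and 38.9 CPM. Tap1 changed by a log2 fold change of 2.69 with a standard error of 0.23 and an edgeR adjusted P of 7.84e-05. Its exons share 212 bases (3.87% of their length) with the antisense gene Psmb9, and reads touching both genes would not have been assigned.

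Tap2 (ENSMUSG00000024339.12, chr17:34203527-34216321, plus strand) encodes the partner subunit. It was at 6.25, 6.01 and 6.52 CPM in sham mice and at 13.9, 12.9 and 17.5 CPM in BCAS mice, the smallest gap between the groups among the 10 genes. Its log2 fold change was 1.24 with a standard error of 0.15 and an edgeR adjusted P of 4.23e-04. Under glmTreat, which asks whether a change exceeds the fold threshold, the Tap2 call was lost at an adjusted P of 0.335, and its adjusted P ran from 2.94e-11 to 0.335 over all alternatives. The antisense gene Gm15821 covers 14.1% of the Tap2 exon length, with 3 to 12 counts per library.

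Tapbp (ENSMUSG00000024308.15, chr17:33915899-33929292, plus strand) was at 26.5, 24.3 and 24.3 CPM in sham mice. BCAS mice had 62.2, 62.4 and 83.5 CPM. Per kilobase, Tapbp was above Tap1 and Tap2 in both groups. The log2 fold change of Tapbp was 1.47 with a standard error of 0.12 and an edgeR adjusted P of 6.73e-05. Antisense Gm19412 covers 24.9% of its exon length and was listed with 0 counts in every library, and Zbtb22, on the same strand, shares 4.11% of it and had 913 to 1334 counts. Reads touching Tapbp and either gene would not have been assigned, so how many Tapbp lost there is not known.

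Per kilobase of exon, the order of the levels differed between the groups. In sham mice B2m led with a mean of 97.0 CPM per kilobase, followed by H2-D1 at 16.0, H2-K1 at 12.8, Tapbp at 6.90, H2-T23 at 3.39, H2-Q4 at 1.81, Tap2 at 1.66, H2-Q6 at 0.788, Tap1 at 0.785 and H2-Q7 at 0.279. Neighbours in this order did not overlap between mice except H2-Q4 with Tap2 and H2-Q6 with Tap1. In BCAS mice the order was B2m at 886 CPM per kilobase, H2-D1 at 183, H2-K1 at 111, H2-T23 at 23.7, Tapbp at 19.1, H2-Q4 at 13.7, H2-Q6 at 11.9, Tap1 at 5.08, H2-Q7 at 4.20 and Tap2 at 3.90. Here the mice overlapped for 6 of the 9 neighbouring pairs, and gaps remained after B2m, after H2-K1 and after H2-Q6. By group mean Tap2 went from place 7 to place 10. It was still above H2-Q7 in BCAS mouse 1 (3.67 against 3.57) and BCAS mouse 2 (3.41 against 3.11), and below it in BCAS mouse 3. The exon length joins all annotated exons of a gene, which for H2-Q7 came to 4265 bases, so levels per kilobase of genes with many isoforms are low estimates.

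H2-D1 took a larger share of the heavy chain transcripts in every BCAS mouse than in any sham mouse. As a share of the 6 heavy chains per kilobase, H2-D1 made up 46.0%, 44.5% and 46.4% in sham mice and 52.1%, 53.9% and 52.5% in BCAS mice. H2-K1 made up 36.1%, 36.0% and 37.2% in sham mice and 32.1%, 31.0% and 32.2% in BCAS mice. The share of H2-T23 went from a mean of 9.74% ± 1.40 to 6.76% ± 0.308 (SD, n = 3) and that of H2-Q4 from 5.17% ± 0.182 to 3.96% ± 0.119. H2-Q6 went from 2.23% ± 0.544 to 3.49% ± 0.409 and H2-Q7 from 0.791% ± 0.148 to 1.20% ± 0.106. The groups did not overlap for any of the 6 shares, which are tied to each other because they add up to the whole.

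**Figure D3:**
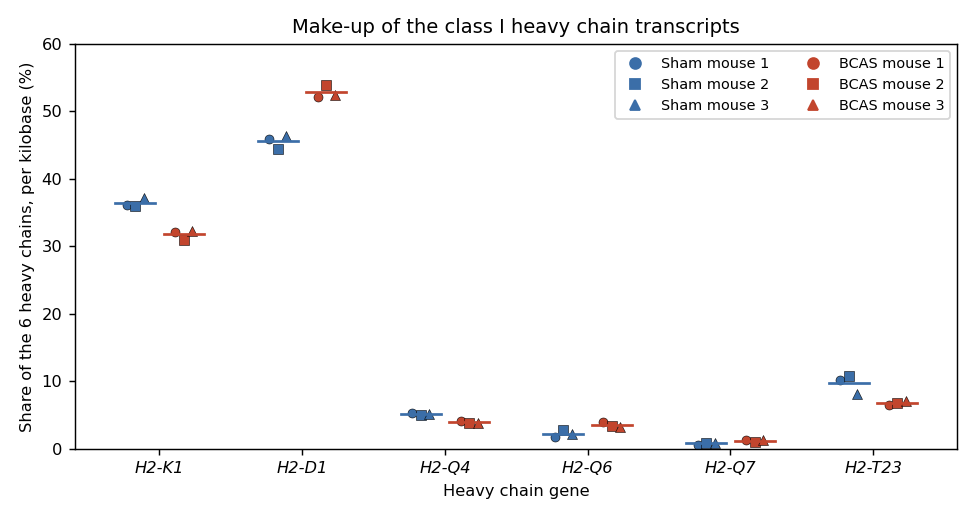
Share in percent of each heavy chain among the 6 heavy chains, per kilobase of exon, in each library; points are single mice and bars are group means. H2-D1 stands at 44.5% to 46.4% in sham and at 52.1% to 53.9% in BCAS, and H2-K1, H2-Q4 and H2-T23 are lower in BCAS.

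Ratios within a library do not depend on how libraries are scaled, and 4 were compared. With 3 mice against 3, an exact two-sided permutation test cannot give a P below 0.1, and each ratio reached this smallest value (Benjamini-Hochberg adjusted 0.1), so none of the 4 can pass 0.05. The ratio of H2-K1 to H2-D1 was 0.786, 0.810 and 0.803 in sham mice and 0.617, 0.575 and 0.614 in BCAS mice, a log2 difference of -0.41. Tap1 to Tap2 was 0.456, 0.546 and 0.425 in sham mice and 1.09, 1.21 and 1.54 in BCAS mice, a log2 difference of 1.42. Tap1 was thus below Tap2 per kilobase in all 3 sham mice and above it in all 3 BCAS mice. Tap1 to Tapbp was 0.103, 0.130 and 0.110 in sham mice and 0.233, 0.240 and 0.308 in BCAS mice, a log2 difference of 1.19. B2m to the summed heavy chains moved least, from 2.82, 2.71 and 2.78 in sham mice to 2.48, 2.68 and 2.51 in BCAS mice, a log2 difference of -0.12.

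**Figure D4:**
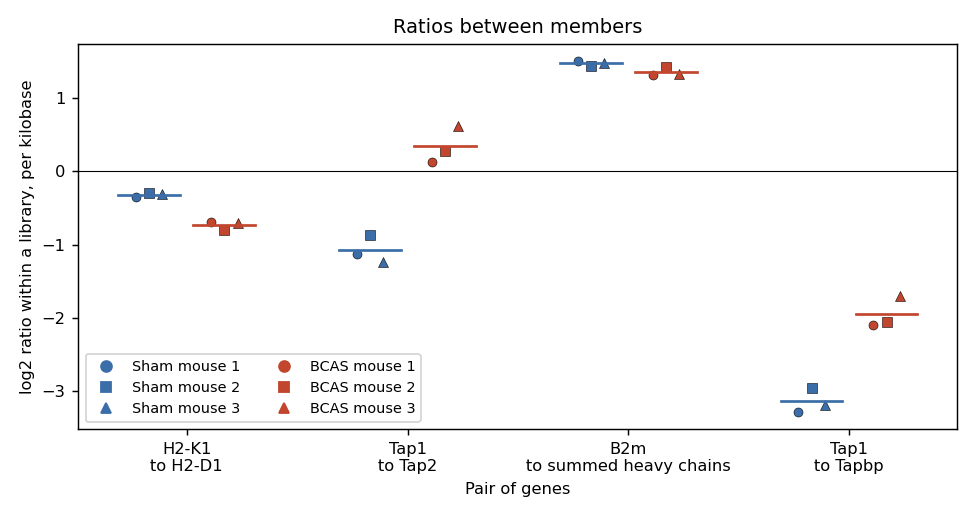
log2 ratio of 4 pairs of genes within each library, per kilobase; points are single mice and bars are group means. Tap1 to Tap2 crosses 0 between sham and BCAS, while B2m to the summed heavy chains stays near the sham level, 0.12 lower on the log2 scale.

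Other genes of the pathway were grouped by role, 59 listed and 48 tested. Of the 48, 7 fell below the filter on low counts in a sham library. Except for H2-Bl, they passed it through the BCAS libraries, which favours a higher call. H2-Bl had 13, 7 and 14 counts in sham mice and 5, 19 and 7 in BCAS mice, and was not called. In the other 41, edgeR called 17 higher, beside 8.47% of all genes tested. Counts over all 48 include the genes that passed through the BCAS libraries, so they are given as description. Over all 48, edgeR called 23 higher and 0 lower, where 0.999% of all genes tested were called lower. DESeq2 and limma-voom gave the same counts. At an unadjusted P under 0.05 by edgeR, 35 were higher and 3 lower, beside 22.9% and 19.4% of all genes tested. At an adjusted P under 0.05 without the fold threshold, 33 were higher and 1 lower, beside 18.0% and 13.2%. The count of 23 calls was 17 without BCAS mouse 3 and 11 under glmTreat.

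Among 12 other heavy chain and class I-like genes that met the filter in every sham library, 7 were called higher, with a median log2 fold change of 1.12. H2-M3, which shows formylated peptides, went from 1.48 ± 0.403 to 9.91 ± 3.57 CPM (SD, n = 3), a log2 fold change of 2.74 with an edgeR adjusted P of 2.74e-04. H2-T24 (2.08), the iron regulator Hfe (1.49), H2-T10 (1.48), H2-Q1 (1.47), H2-T22 (1.14) and Mr1, which presents vitamin metabolites (1.10), were also called on the log2 scale. H2-Q1 passed narrowly, at an edgeR adjusted P of 0.042. Fcgrt, the neonatal Fc receptor (0.96), and H2-K2 (0.80) passed the adjusted P alone.

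Of the 8 chaperone and trimming genes, 2 were called higher, and the list's median log2 fold change was 0.30. They were the peptide-trimming protease Erap1 (1.31) and the tapasin relative Tapbpl, an editor of bound peptides (1.01). The thiol oxidoreductase Pdia3, which sits beside tapasin in the loading complex, had a log2 fold change of 0.38 and passed the adjusted P alone. The folding chaperones Calr (0.23) and Canx (0.11) did not pass.

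Of the 8 proteasome genes, 2 were called higher, with a median log2 fold change of 0.56. These were the immunoproteasome subunits Psmb8 (3.03) and Psmb9 (2.38), which replace constitutive subunits and shape the cut of class I peptides. Psmb8 was at 1.59, 1.61 and 1.49 CPM in sham mice and at 8.03, 12.2 and 18.1 CPM in BCAS mice. The third immunoproteasome subunit, Psmb10, had a log2 fold change of 0.49 and the PA28 activator genes Psme1 and Psme2 had 0.66 and 0.63, and all of them passed the adjusted P alone. The constitutive subunit Psmb5 had a log2 fold change of -0.53 with an edgeR adjusted P of 0.00263, under the fold threshold. The other constitutive subunits, Psmb6 (-0.07) and Psmb7 (-0.26), did not pass.

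Among 11 transcription factor genes, 5 were called higher, with a median log2 fold change of 0.93. Nlrc5, the class I transactivator, was at 1.65, 1.38 and 1.05 CPM in sham mice and at 10.6, 11.6 and 16.7 CPM in BCAS mice. Its log2 fold change was 3.25 with a standard error of 0.25 and an edgeR adjusted P of 4.05e-05. The interferon pathway genes Irf9 (1.90) and Irf1 (1.34) and the NF-kappa B subunit gene Nfkb1 (1.11) were also called on the log2 scale. Rfx5 (0.28), Rfxank (0.18) and Rfxap (-0.24), subunits of the factor that Nlrc5 works with at class I promoters, did not pass.

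**Figure D5:**
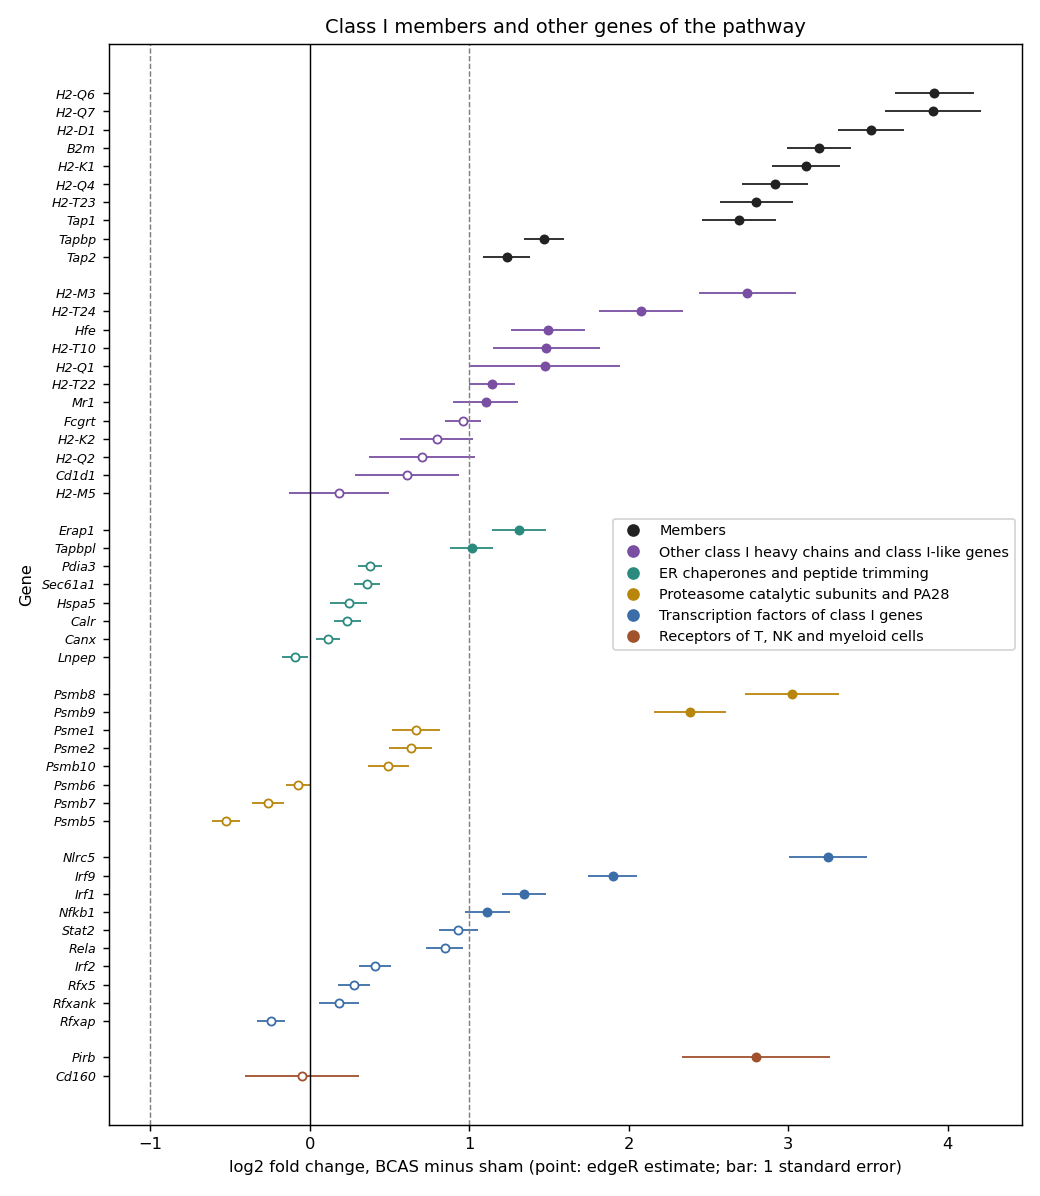
log2 fold change, BCAS minus sham, of the 10 genes (black) and of tested genes of the pathway lists (colours); points are edgeR estimates, bars are 1 standard error, filled points were called higher and dashed lines mark a log2 fold change of 1 and -1. The 10 genes run from 1.24 for Tap2 to 3.92 for H2-Q6, and genes below the low-count filter in a sham library are left out.

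Marker lists of several cell types differed between the groups beside the 10 class I genes. Their counts stand beside 8.47% of all genes tested called higher, and beside 18.0% higher and 13.2% lower by adjusted P alone. All 10 microglial markers were called higher, and their summed level was 342 to 359 CPM in sham mice and 1699 to 2765 CPM in BCAS mice, with BCAS mouse 3 highest. T cell markers summed to 2.68 to 4.05 CPM in sham mice and 8.78 to 9.71 CPM in BCAS mice, with the defining markers Cd3e, Cd3d and Cd3g at 0 to 5 counts per sham library. Of the 7 T cell markers, 5 passed the filter through the BCAS libraries alone, as did the 1 NK cell marker tested, so their calls are not counted. NK cell markers summed to 0.0590 to 0.291 and 2.11 to 2.43 CPM. Markers of monocytes and border macrophages summed to 8.82 to 13.5 and 26.5 to 37.4 CPM, with 4 of the 5 that met the filter in every sham library called higher. Endothelial markers summed to 243 to 259 and 324 to 367 CPM, with none called and 5 of 6 higher by adjusted P alone. Astrocyte markers summed to 1358 to 1498 and 5322 to 5829 CPM, with Gfap and Aqp4 called among 5. Neuronal markers summed to 5626 to 6281 and 3036 to 4582 CPM, all 5 lower by adjusted P alone, and oligodendrocyte markers summed to 4087 to 4970 and 4752 to 7139 CPM with none of 4 passing by edgeR and 1 higher at an unadjusted P under 0.05. B cell markers summed to 0.233 to 0.658 and 0.629 to 1.03 CPM and neutrophil markers to 0.209 to 1.08 and 0.584 to 2.52 CPM, with Ly6g at 0 in every library. The part of these cell types in the class I values was not tested.

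Set against the summed microglial markers of the same library, a description chosen after seeing the data, the genes lay in 3 different ways. The 10 together equalled 55.2%, 61.3% and 64.3% of the microglial sum in sham mice and 84.1%, 84.0% and 86.9% in BCAS mice. On this scale the 3 BCAS mice lay close together. H2-D1 was 11.8% ± 1.20 in sham and 22.5% ± 0.566 in BCAS (SD, n = 3), and B2m was 23.8% ± 2.20 and 36.3% ± 0.956. H2-K1, H2-Q4, H2-Q6 and H2-Q7 were likewise higher in every BCAS mouse than in every sham mouse. H2-T23, at 2.80% ± 0.366 and 3.23% ± 0.215, and Tap1, at 1.23% ± 0.138 and 1.32% ± 0.0796, overlapped between the groups. Tap2, at 1.79% ± 0.0692 and 0.721% ± 0.0920, and Tapbp, at 7.14% ± 0.225 and 3.38% ± 0.326, were lower in every BCAS mouse. The microglial sum itself was higher in BCAS mice, and 93.2% of all genes tested were lower in every BCAS mouse on this scale and 1.67% were higher in every one.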

How the data were processed

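RNA was sequenced from the right hippocampus of 3 sham and 3 BCAS mice, grouped by their labels. Per the study's methods, the authors trimmed the reads with Trim Galore, aligned them to mm10 with HISAT2 and counted them with featureCounts, and they deposited raw counts per gene. The file headers name featureCounts 2.0.3 with a GENCODE annotation, while the methods name version 1.6.3 and RefSeq genes. Per the headers, each mate was counted on its own and strand was ignored. The default settings leave reads of several places or several genes uncounted. Of 54752 identifiers, 29 had no symbol.

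The 10 genes, the pathway and marker lists and the tests were chosen with earlier results of these data known. The named genes are all 10 members, genes of the pathway lists and the defining markers of each cell type list. Genes were kept by filterByExpr, scaled by TMM and tested with edgeR 4.0.16 (R 4.3.3, quasi-likelihood) on all 6 libraries, with Benjamini-Hochberg adjustment over 18617 genes. The standard error is the absolute log2 fold change divided by the square root of F. With 1 library per mouse, P values measure the spread between mice. Alternatives were DESeq2 1.42.0, limma-voom 3.58.1, RLE factors, library totals, 2 other filters, no fold threshold, glmTreat, a replicate block, leaving out each mouse and, added after seeing the data, a choroid plexus covariate. The steps were tested on simulated data. A gene of the transcription factor list and a motif are not reported here. Promoters came from RefSeq (GRCm38.p6) and transcript windows from GENCODE M21.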

Additional observations from a re-analysis of the deposited data

How the results depend on the processing

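All 10 genes kept their call under each alternative, except Tap2 under glmTreat (9 of 10). The log2 fold change of H2-D1 ran from 3.23 to 3.66 and that of Tapbp from 1.31 to 1.55. Library totals moved the median of all genes from 0.02 to 0.09 on the log2 scale and changed no call of the 10. Over all genes tested, 1762 were called, against 818 with glmTreat and 5819 with no fold threshold. For the pathway lists, glmTreat gave 11 genes called higher in place of 23, and no fold threshold gave 1 called lower in place of 0. Without each mouse in turn, the pathway count ran from 17 to 24 and all 10 genes stayed called. Without each mouse in turn, the log2 difference of H2-K1 to H2-D1 ran from -0.43 to -0.38, Tap1 to Tap2 from 1.28 to 1.53, B2m to the summed heavy chains from -0.15 to -0.10 and Tap1 to Tapbp from 1.06 to 1.28. The H2-Q6 and H2-Q7 sum ran from 3.66 to 4.07. No sign of pairing by replicate number was seen. The residuals of same-numbered sham and BCAS libraries correlated at 0.036, -0.314 and -0.158, and those of differently numbered libraries at -0.246 to 0.347. These values cannot exclude a batch shared by same-numbered mice. With the replicate number as a block, 10 members and 23 pathway genes were called, the sum of H2-Q6 and H2-Q7 changed by 3.91, and 1595 of all genes were called. At 3 mice per group, single-gene permutation tests could not pass 0.05, and genes of the Qa-2 pair rest on 29 to 68 counts per sham library.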

Other observations

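A list of T cell, NK cell and myeloid receptors, most of which are known to read class I or class I-like molecules, was measured in the same libraries. Cd8a, Cd8b1, Klrd1, Klrk1 and Lilrb4a passed the filter on low counts only through the BCAS libraries, so they are given by their values without a test, and Klrc1, Klrb1c and Klra2 were not tested. Cd8a, a chain of the T cell coreceptor for class I, had 0, 6 and 4 counts in sham mice and 71, 60 and 74 in BCAS mice. Its partner chain gene Cd8b1 had 0 counts in all 3 sham mice and 34, 34 and 37 in BCAS mice. Against a limit of 3 counts per library, Cd8b1 was 12.6-fold higher in BCAS mice. Each mate was counted on its own, so 3 counts can be fewer than 3 fragments, and this fold is not a firm minimum. Klrd1, which encodes the CD94 chain that binds the H2-T23 product, had 4, 2 and 4 counts in sham mice and 13, 40 and 22 in BCAS mice. Klrk1, which encodes NKG2D, had 4, 4 and 0 counts in sham mice and 23, 12 and 23 in BCAS mice. The myeloid inhibitory receptor Pirb was at 0.619, 0.329 and 0.408 CPM in sham mice and at 1.45, 4.34 and 3.75 CPM in BCAS mice, and was called higher with a log2 fold change of 2.80 and an edgeR adjusted P of 0.00250. Lilrb4a, an inhibitory receptor gene of myeloid cells whose product is not known to read class I, was at 0.236, 0.179 and 0.175 CPM in sham mice and at 6.37, 9.21 and 14.2 CPM in BCAS mice. Cd160 had a log2 fold change of -0.05 and did not pass. By CPM, Cd8a, Cd8b1, Klrc1, Klrk1 and Lilrb4a were highest in BCAS mouse 3, as the 10 class I genes were. Klrd1, Pirb, Klrb1c and Klra2 were highest in BCAS mouse 2, and Cd160 in sham mouse 2. Cd8a differed little between BCAS mice.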
